A study of Homo sapiens with 12 samples.

Results

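FOXA2 peaks of SW620 cells at acetylated enhancers were described here. The members were the SW620 FOXA2 peaks that overlapped an SW620 H3K27ac region by at least 1 bp and no SW620 H3K4me3 region. They numbered 2914 of the 12372 SW620 FOXA2 peaks, or 23.6%. The remaining SW620 peaks lay on H3K4me3 (1616), on H3K4me2 without H3K27ac or H3K4me3 (2293), or on none of these 3 marks (5549).

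SW480 and SW620 are human colorectal adenocarcinoma lines, labelled Dukes' type B and Dukes' type C, and both were grown without treatment in DMEM with fetal bovine serum. Chromatin immunoprecipitation with sequencing was done in each line for H3K4me2, H3K4me3, H3K27ac, H3K36me3 and FOXA2, with an input library. Each line and antibody had 1 library, so a difference between the lines has no replicate check, and no p-value is given. Each line stands for 1 cell culture model, and nothing here separates tumour stage from other differences between the lines.

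FOXA2 is a forkhead transcription factor that binds DNA on nucleosomes and opens closed chromatin, which is why it is called a pioneer factor. It acts in the development of endoderm and liver, and in the adult it is found in liver, pancreas, lung and gut epithelium. Active enhancers carry H3K27ac and H3K4me1 or H3K4me2 on the nucleosomes that flank a gap where factors bind, and they usually lack the strong H3K4me3 of promoters. H3K36me3 covers the bodies of transcribed genes.

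Total tags per library ran from 12791745 to 47867295. The FOXA2 libraries had similar depth, but called peaks held 0.59% of the tags in SW480 against 2.25% in SW620, so the absence of an SW480 FOXA2 call is a weaker statement than its presence. H3K27ac differed the other way, with 58.5% of tags in regions in SW480 and 27.5% in SW620. No signal per peak was analysed, because the deposited score was 1 in every row. The results below are therefore counts and positions. Shares carry 95% Wilson intervals, which cover counting error only, and neighbouring peaks are not independent. Coordinates are hg19. No genome of that build was at hand, so no gene name and no sequence is given.

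The members were chosen by the SW620 calls of FOXA2, H3K27ac and H3K4me3, and these calls are not results. At the edge of the rule, the smallest overlap with an acetylated region was 3 bp and 24 members had under 10% of the peak covered, while 266 peaks without H3K27ac or H3K4me3 lay within 1 kb of an acetylated region and the nearest of them touched it without overlap. The rule set aside 1274 of the 4188 acetylated FOXA2 peaks because they overlapped H3K4me3. Of the members, 2614 lay in acetylated regions free of H3K4me3. The other 300 lay off H3K4me3 but in an acetylated region that reached an H3K4me3 region elsewhere, and 166 had H3K4me3 within 1 kb. The name enhancer thus rests on a missing H3K4me3 call.

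H3K4me2, which the rule did not use, was called at most members. It covered 2537 of the 2914 in SW620, or 87.1% (85.8 to 88.2), where 51.7% of all SW620 FOXA2 peaks had it. The share over all peaks includes the 5549 on none of the 3 marks, which lack H3K4me2 by definition. Of the FOXA2 peaks on H3K4me3, 96.7% had H3K4me2, so this mark does not tell enhancers from promoters here. The 377 members without H3K4me2 lay in narrower acetylated regions, with a median width of 1885 bp against 2751 bp for those with it. Of these 377, 107 had an H3K4me2 region within 1 kb, and for 117 the acetylated region itself touched H3K4me2 elsewhere. Few members lay in H3K36me3 regions: in SW620 the mark covered 148 members, or 5.08% (4.34 to 5.94), against 3.31% of all SW620 FOXA2 peaks. In SW480 it covered 173, or 5.94% (5.14 to 6.85), against 4.26% of all.

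Lying off H3K4me3 was set by the rule, but the members lay nearer to it than the other FOXA2 peaks off H3K4me3. Members that SW480 left unmarked lay farther from it than those acetylated without H3K4me3 there. The median distance from the centre of a member to the nearest SW620 H3K4me3 region was 31.8 kb, with quartiles of 9.57 and 84.9 kb. It was 44.6 kb for FOXA2 peaks on H3K4me2 alone and 76.7 kb for those on none of the 3 marks. Within 5 kb of an H3K4me3 region lay 16.1% of the members, and 20.6% lay over 100 kb away. Among members without any of the 3 marks in SW480 the median was 43.1 kb, and among those acetylated without H3K4me3 in SW480 it was 24.3 kb. The acetylated regions themselves also differed. SW620 H3K27ac regions without H3K4me3 that held a member were a median of 40.2 kb from H3K4me3, and those without a member 27.1 kb. These regions leave out acetylated regions that reach H3K4me3, in which 300 of the members lay. The 40.2 kb is thus not comparable with the 31.8 kb of all members.

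The next question was what these sites looked like in SW480. The members divided into a group acetylated in SW480 and a slightly larger group without any of the 3 marks there, with few in between. H3K27ac of SW480 covered 1275 members, or 43.8% (42.0 to 45.6), where 24.3% of all SW620 FOXA2 peaks had it. Of these 1275, 1126 had no SW480 H3K4me3, which makes them acetylated enhancers in both lines by the same rule. SW480 H3K4me3 covered 159 members, or 5.46% (4.69 to 6.34), against 13% of all SW620 FOXA2 peaks. A state with H3K4me2 alone, as at a primed enhancer, was found in SW480 for 217 members, or 7.45% (6.55 to 8.46). This was close to the 6.89% of all SW620 FOXA2 peaks. None of the 3 marks was called in SW480 at 1412 members, or 48.5% (46.6 to 50.3), against 66.8% of all SW620 FOXA2 peaks. In total 1310 members, or 45.0%, overlapped SW480 H3K4me2, against 30.2% of all.

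**Figure D1:**
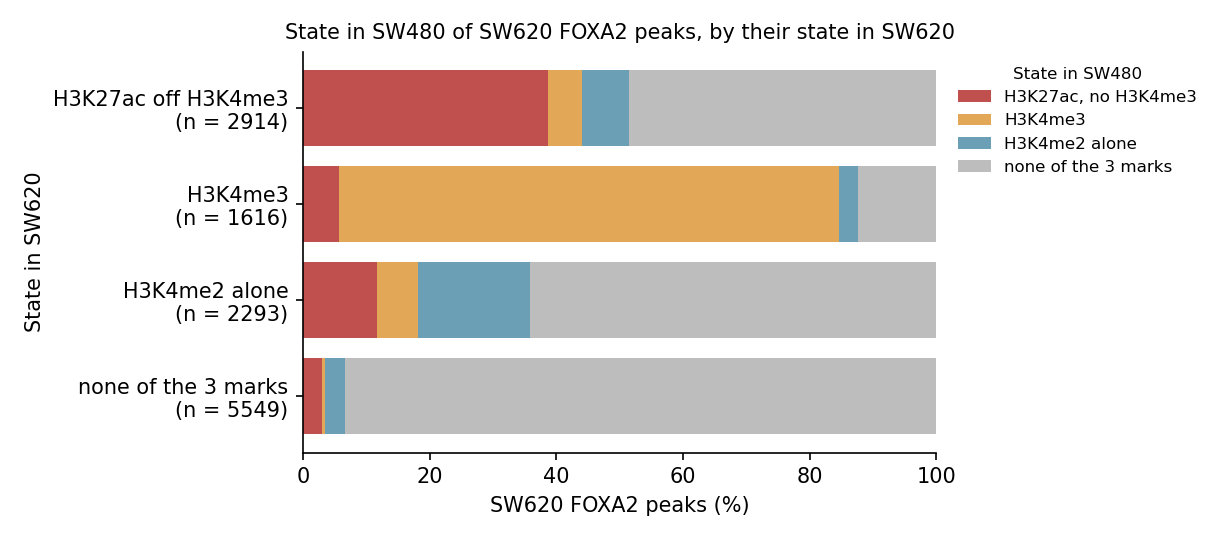
Bars show the share (%) of SW620 FOXA2 peaks in each SW480 chromatin state, with 1 bar for each state in SW620 and n the number of peaks. Among the 2914 peaks on H3K27ac off H3K4me3, 38.6% were acetylated without H3K4me3 in SW480 and 48.5% had none of the 3 marks, while 78.8% of the peaks on H3K4me3 had H3K4me3 in SW480 too.

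Other SW620 FOXA2 peaks had other states in SW480. Peaks on H3K4me3 were acetylated in SW480 in 75.8% of cases (73.7 to 77.8), peaks on H3K4me2 alone in 14.3% (12.9 to 15.8) and peaks on none of the 3 marks in 3.17% (2.74 to 3.67). The members thus stood between the promoter peaks and the rest, with intervals that did not overlap. Peaks on H3K4me2 alone had that state in SW480 too in 17.8% of cases and were unmarked there in 64.1%.

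FOXA2 itself was rarely called in SW480 at these sites. An SW480 FOXA2 peak overlapped 39 members, or 1.34% (0.981 to 1.82), against 1.91% of all SW620 FOXA2 peaks. Of the 1275 members acetylated in SW480, 26 had an SW480 FOXA2 peak, and of the 1412 unmarked ones 9 had. The call was thus rare in both groups but less so at the acetylated members, on small counts. The 39 positions matched closely: the peak centres of the lines lay a median of 21 bp apart, and 31 of the 39 lay within 50 bp. Overlap of the peaks, by which the 39 were chosen, itself bounds this distance, and no even-spread value is given for it. In the SW620 list these members came early, with a median place of 877 against 4726 for all members (6187 over the whole list), and 27 of the 39 were in the first of 5 equal parts of the member list. No source used here says what the list order means. With chromosomes 8 and 18 left out of this order, the first of them was the peak on chromosome 7 from 47803277 to 47803595. It was acetylated in SW480 and had an SW480 FOXA2 peak 55 bp away by centre. The second lay on chromosome 17 from 17349557 to 17349875, where SW480 had H3K4me2 alone and the centres coincided. The third, on chromosome 10 from 123822743 to 123823061, was acetylated in SW480 and the centres were 15 bp apart.

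The state in SW480 went with the width of the SW620 acetylated region. Region widths start at 1001 bp, the caller's smallest size. Of the 325 members in regions of this smallest width, 18.2% (14.3 to 22.7) were acetylated in SW480. The share was 26.5% of 654 members in wider regions up to 2 kb, 42.1% of 707 at 2 to 3 kb, 56.7% of 697 at 3 to 5 kb and 65.9% (61.8 to 69.8) of 531 over 5 kb. The unmarked share ran the other way, from 71.7% to 29.6%. Among members with H3K4me2 in SW620, 46.7% (44.8 to 48.7) were acetylated in SW480, and among those without it 23.6% (19.6 to 28.1). List order made little difference, with 41.9% to 46.0% acetylated in SW480 over 5 equal parts of the member list.

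Most members that SW480 did not acetylate lay over 10 kb from any SW480 H3K27ac region. Of these 1639 members, 162 lay in an SW620 region that reached an SW480 H3K27ac region elsewhere, and 104 had an SW480 region within 1 kb. The median distance to the nearest SW480 H3K27ac region was 25.2 kb, and 1128, or 68.8%, were over 10 kb from any. These members were chosen for not overlapping such a region, and no distances are given here for other peaks. The values are therefore not set against a background. At the 1275 members acetylated in SW480 the regions had similar widths, with a median of 3377 bp in SW620 and 3307 bp in SW480. The SW480 region was the wider at 597 members and the narrower at 669.

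Individual members show the range of SW480 states. The first 3 of the list in each state were taken, leaving out chromosomes 8 and 18. Among those unmarked in SW480, the first was the peak on chromosome 2 from 11494461 to 11494779, in an acetylated region of 7.80 kb, 2661 bp from the region centre. The next lay on chromosome 10 from 95205378 to 95205696, 28 bp from the centre of a region of 2.84 kb. The third, on chromosome 10 from 60833333 to 60833651, lay 109 bp from the centre of a region of 5.36 kb. All 3 had H3K4me2 in SW620.

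Members acetylated in SW480 included the peak on chromosome 15 from 69887008 to 69887326, in a region of 6.18 kb. This peak lay on H3K4me2 in both lines and overlapped no SW480 FOXA2 peak. The other 2 of the first 3 were those on chromosomes 7 and 10 named above with an SW480 FOXA2 peak. Members with H3K4me2 alone in SW480 included, besides the chromosome 17 peak above, chromosome 7 from 46630841 to 46631159, 36 bp from the centre of a region of the smallest width. The third lay on chromosome 14 from 90979898 to 90980216, 52 bp from the centre of a region of 4.49 kb. Both were without H3K27ac in SW480.

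Members with H3K4me3 in SW480 alone were led by chromosome 7 from 46013565 to 46013883, in a region of 4.13 kb. They were followed by chromosome 11 from 2232381 to 2232699, in a region of 22.9 kb and with an SW480 FOXA2 peak, and by chromosome 7 from 139929431 to 139929749. All 3 were acetylated in both lines. At these sites the lines differ in the H3K4me3 call, not in acetylation.

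Acetylated regions with and without FOXA2 were then compared for their state in SW480. SW620 had 8919 H3K27ac regions without H3K4me3, of which 2485, or 27.9% (26.9 to 28.8), held a member. The share rose with width, from 14.4% at the smallest width to 61.9% over 5 kb. Per length it did not rise: there were 14.4 members per 100 kb of region at the smallest width and 11.6 over 5 kb. H3K4me2 was found at 89.5% of the regions with a member and 74.7% of those without.

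Over all widths, regions with a member were acetylated in SW480 in 43.1% of cases (41.2 to 45.1) and regions without in 39.1% (37.9 to 40.3), against 40.2% of all 8919. Within bands of width the order was the opposite. At the smallest width, 18.4% (14.6 to 23.0) of 331 regions with a member and 24.2% (22.3 to 26.1) of 1969 without were acetylated in SW480. For regions up to 2 kb the shares were 27.9% (24.6 to 31.5) and 34.3% (32.3 to 36.3), at 2 to 3 kb 43.3% (39.6 to 47.0) and 49.1% (46.5 to 51.7), and at 3 to 5 kb 60.2% (56.2 to 64.0) and 66.4% (62.9 to 69.7). Over 5 kb they were 73.6% and 76.0%, with intervals that overlapped widely. The regions with a member were lower in all 5 bands, and the intervals were separate in the band up to 2 kb alone. Weighted by band size the difference was -5.89 percentage points (95% interval -8.10 to -3.68, from counting error). The regions differed in width, with a median of 2351 bp with a member and 1558 bp without. In the weighted difference only width was balanced. Regions with a member also lay farther from H3K4me3, with a median of 40.2 kb against 27.1 kb. The share with a member and the share acetylated in SW480 both varied between chromosomes. The part of distance and chromosome in the difference was not tested.

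**Figure D2:**
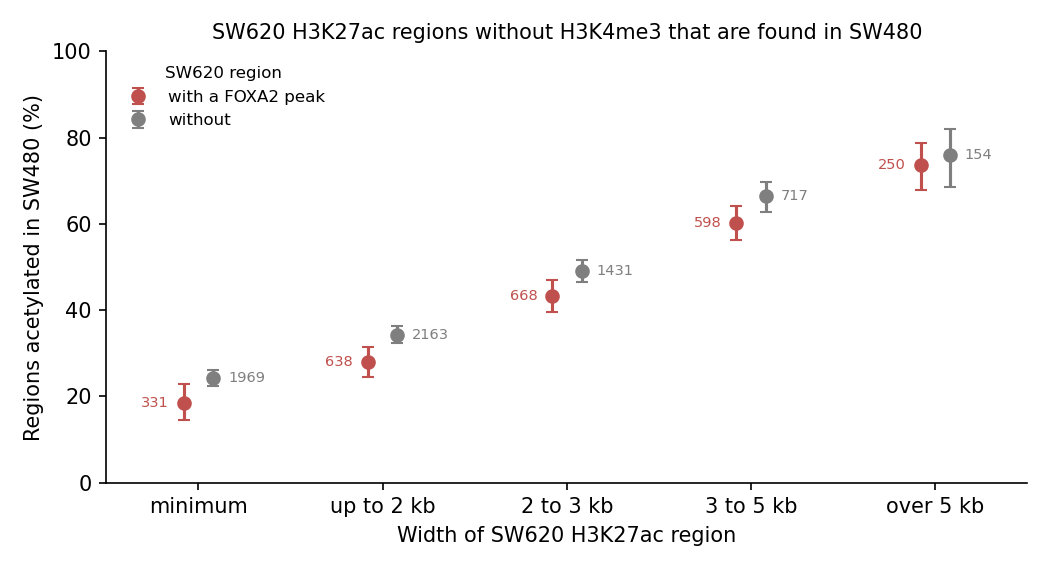
Points show the share (%) of SW620 H3K27ac regions without H3K4me3 that overlap an SW480 H3K27ac region, by region width and by whether the region holds a FOXA2 peak. Bars are 95% Wilson intervals and the small numbers count regions. The share climbs with width, and regions with a peak are lower in each of the 5 bands, for example 27.9% against 34.3% up to 2 kb.

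Some wide acetylated regions without H3K4me3 held no FOXA2 peak. The widest was 13.3 kb on chromosome 12, from 27697305 to 27710579, and it was acetylated in SW480 too. The next, on chromosome 21 from 36358388 to 36368964, was also found in SW480. The third, on chromosome 6 from 20693407 to 20703701, had 3 H3K4me2 regions in SW620 and no region of H3K27ac, H3K4me2 or H3K4me3 in SW480.

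FOXA2 sat close to the centres of the acetylated regions. Per the file headers, HOMER, the region caller, centred the histone regions on the most likely nucleosome-free region, so the centre of a region stands for the caller's estimate of a gap between marked nucleosomes. Of the members, 2607, or 89.5%, lay inside their region over the whole peak width of 319 bp, and 134 had their centre outside it. The median distance from peak centre to region centre was 336 bp, with quartiles of 71 and 733 bp. Within 150 bp of the region centre lay 1116 members, or 38.3% (36.5 to 40.1). Peaks spread evenly over the places that overlap these regions would reach 11.3%, so the measured share was 3.39 times as high. In bins of 250 bp, 1328 members lay under 250 bp from the centre, 449 in the next bin, 427 in the third and 226 in the fourth.

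**Figure D3:**
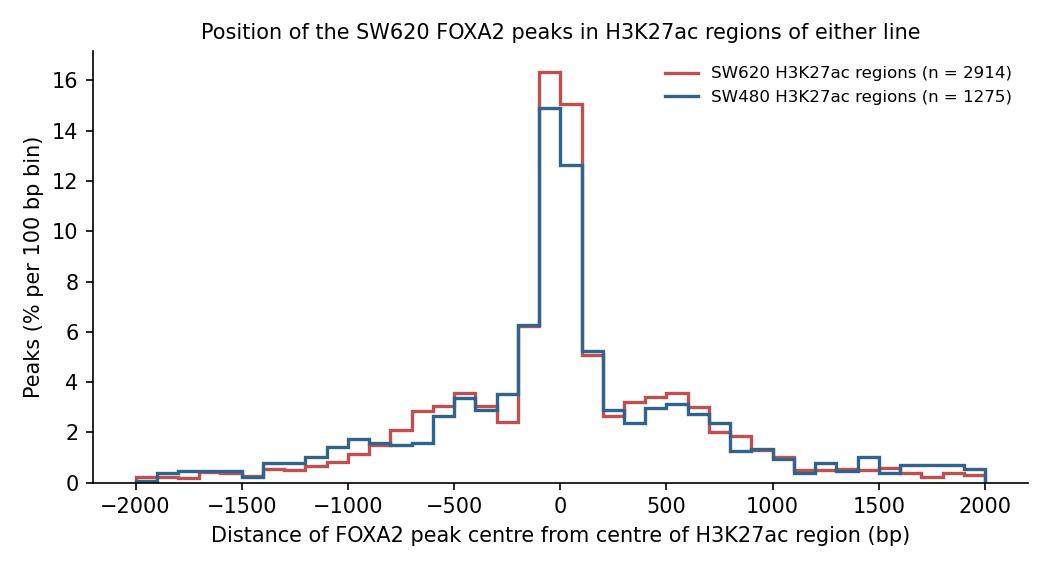
Lines show the share of FOXA2 peaks (% per 100 bp bin) by signed distance (bp) from peak centre to the centre of the H3K27ac region, within 2000 bp. The red line gives all 2914 SW620 peaks in SW620 regions and the blue line the 1275 of them that lie in SW480 regions. In both lines' regions the peaks gather at the centre, with low shoulders near 500 bp on either side.

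The central position held across widths. Within 150 bp of the centre lay 42.5% of the members in regions of the smallest width, where even spread gives 22.8%. The share was 45.1% up to 2 kb, 45.8% at 2 to 3 kb and 40.2% at 3 to 5 kb, against 16.2%, 10.95% and 7.43% for even spread. Over 5 kb it was 14.9%, with 3.75% for even spread, and the median distance there was 1453 bp. The share was 43.6% (39.6 to 47.6) in the first of 5 equal parts of the member list and 31.7% (28.1 to 35.6) in the last.

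The same position was found in the SW480 regions, at sites where SW480 had no FOXA2 call. The comparison used the 1034 members covered by H3K27ac and H3K4me2 in both lines, of which 1012 had no SW480 FOXA2 peak. For these 1012 members, 37.7% (34.8 to 40.8) of the SW620 peaks lay within 150 bp of the centre of the SW620 H3K27ac region. The share was 35.97% (33.1 to 39.0) for the centre of the SW480 H3K27ac region. Even spread gives 8.90% and 8.76%. With H3K4me2 regions the shares were 28.9% in SW620 and 30.9% in SW480, against 10.0% and 10.9% for even spread. The intervals of the lines overlapped for either mark.

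Which sites were central was also partly shared between the lines. Over the 1034 members, the H3K27ac region centres of SW620 and SW480 lay a median of 218 bp apart, and 497 pairs, or 48.1%, lay within 150 bp. Both centres were near the FOXA2 peak at 242 members, the SW620 centre alone at 148, the SW480 centre alone at 134 and neither at 510. Of the members near the SW620 centre, 62.1% were also near the SW480 centre, against 20.8% of those that were not.

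H3K36me3 regions, which mark gene bodies, had no such pattern. Of the 148 members in SW620 H3K36me3 regions, 7 lay within 150 bp of the region centre, which is 4.73% (2.31 to 9.44), where even spread gives 7.998%.

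Central position was not particular to the members. FOXA2 peaks of SW620 at H3K4me3 and H3K27ac lay within 150 bp of the H3K27ac centre in 32.9% of 1274 cases (30.4 to 35.5). Peaks on H3K4me2 alone lay within 150 bp of the H3K4me2 centre in 37.6% of 2293 cases, where even spread in these narrower regions gives 17.0%. A further 436 SW620 FOXA2 peaks had neither H3K27ac nor H3K4me3 in SW620 but lay on SW480 H3K27ac without H3K4me3. Of these, 38.5% (34.1 to 43.2) lay within 150 bp of the SW480 region centre, against 12.5% for even spread. The 143 SW480 FOXA2 peaks on SW480 H3K27ac without H3K4me3 reached 23.1% (16.9 to 30.6), against 14.0%.

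The members also lay close to other FOXA2 peaks. Another SW620 FOXA2 peak of any state lay within 10 kb of 943 members, or 32.4% (30.7 to 34.1), where 23.1% of all SW620 FOXA2 peaks had such a neighbour. The share was 20.8% (18.9 to 22.8) for peaks on H3K4me3, 20.2% (18.6 to 21.9) for H3K4me2 alone and 20.1% (19.0 to 21.1) for none of the 3 marks. The median distance to the next peak of any state was 21.9 kb for the members and 46.7, 42.1 and 44.0 kb for the others, in the same order. The caller allowed no peaks closer than 636 bp in SW620, and the smallest distance between members was 653 bp.

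**Figure D4:**
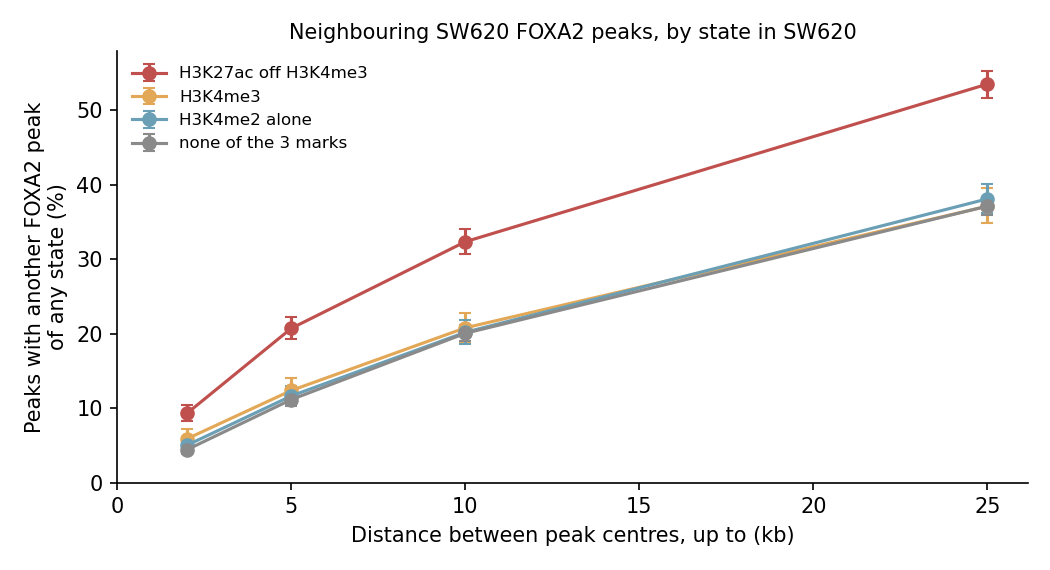
Points show the share (%) of SW620 FOXA2 peaks that have another SW620 FOXA2 peak of any state within 2, 5, 10 or 25 kb, by chromatin state of the peak in SW620. Bars are 95% Wilson intervals. The peaks on H3K27ac off H3K4me3 are above the other 3 states at each distance, with 32.4% against 20.1% to 20.8% at 10 kb.

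Counted among themselves, 634 members, or 21.8% (20.3 to 23.3), had another member within 10 kb. Linked in this way, 2280 members stood alone, 251 chains had 2 members, 40 had 3 and 3 had 4. Of the 340 pairs of neighbouring members within 10 kb, 156 lay in different acetylated regions. An acetylated region without H3K4me3 that held a member had another such region within 25 kb in 54.9% of cases (53.0 to 56.9), and that neighbour held a member in 27.1% (24.8 to 29.5). For regions without a member these shares were 60.2% (59.0 to 61.4) and 24.2% (22.9 to 25.6). A neighbour thus held a member slightly more often beside regions with a member, with intervals that overlapped. Over all 8919 such regions 27.9% held a member. That share includes regions with no neighbour within 25 kb, so it is not a like baseline for the neighbours.

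Neighbouring members tended to have the same state in SW480. Of the 156 pairs in different regions, both members were acetylated in SW480 in 47, neither in 58 and a single member in 51. The members of a pair thus matched in 67.3% of cases, where 50.8% would match if the overall share applied to each member on its own. The 50.8% makes no allowance for region width, with which the state in SW480 varied. No such match is given here for neighbouring regions without a member, so it cannot be called particular to the members.

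Acetylated regions with several members were wide and mostly common to the lines. A region held 2 or more members in 174 of the 2747 regions that held any, and 367 members, or 12.6%, shared their region. The median spacing of neighbours in a region was 1748 bp, with quartiles of 1164 and 3017 bp. Among the regions without H3K4me3, those with 1 member had a median width of 2303 bp and 41.4% were acetylated in SW480. The 128 regions with 2 members had a median width of 4860 bp and 72.7% were acetylated in SW480. The 12 regions with 3 members had a median width of 8775 bp, and 75% were acetylated in SW480. Width rises with the number of members, so their parts cannot be told apart here. In the 174 regions the member nearest the centre lay a median of 394 bp from it, and 33.3% of these lay within 150 bp.

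The 6 narrowest regions with 3 members and no H3K4me3 show both kinds. Of the 3 regions that SW480 lacked, the first lay on chromosome 4 from 74680462 to 74684966, with members 1.82 kb before, 0.083 kb before and 1.35 kb after the region centre. The second lay on chromosome 10 from 72561137 to 72567661, with members 0.730 and 0.071 kb before and 2.85 kb after it. The third lay on chromosome 10 from 60720585 to 60727777, with members 1.16 and 0.12 kb before and 3.50 kb after it. In each of the 3 a member lay within 150 bp of the centre, and SW480 had no region of H3K27ac, H3K4me2 or H3K4me3 there.

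The other 3 were acetylated in SW480. On chromosome 13 from 28397365 to 28401743, all 3 members were acetylated in SW480, which also had an H3K4me3 region there that SW620 lacked, and the members lay 0.993 and 0.031 kb before and 1.86 kb after the centre. On chromosome 1 from 25520296 to 25528660, all 3 members were acetylated in SW480. On chromosome 16 from 70776923 to 70785671, 2 of the 3 members were. None of the 6 regions had an SW480 FOXA2 peak.

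**Figure D5:**
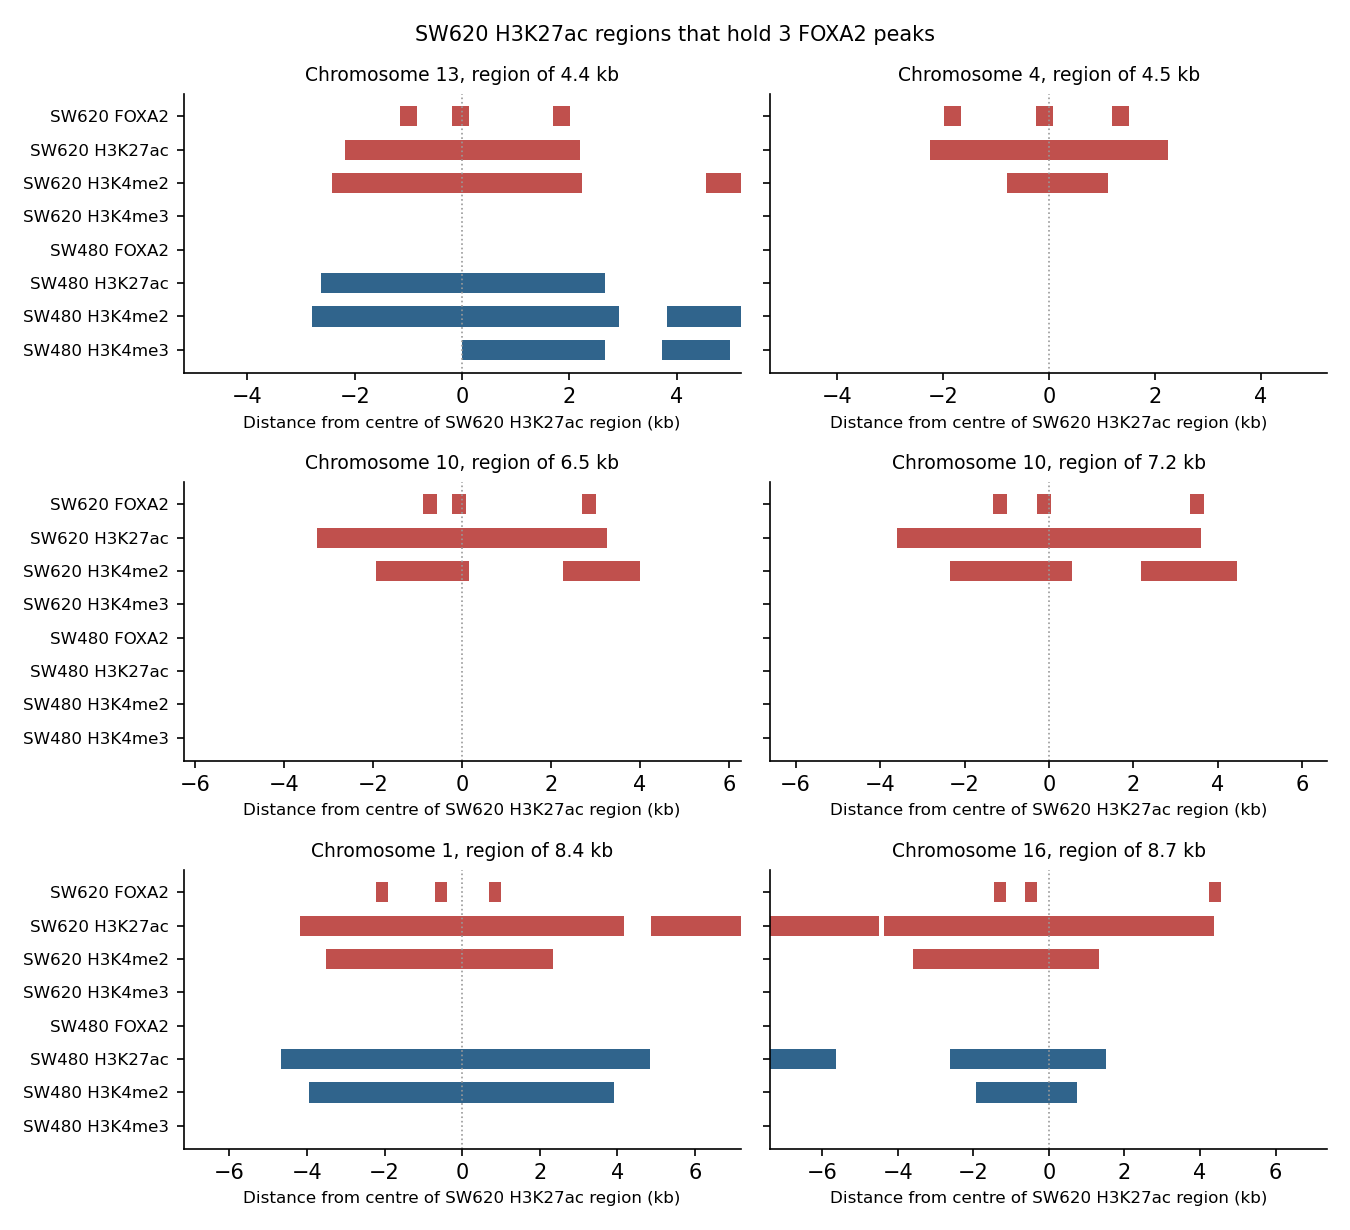
Each panel maps a SW620 H3K27ac region that holds 3 SW620 FOXA2 peaks, with distance (kb) from the region centre on the x axis and the called regions of 8 lists as bars, SW620 in red and SW480 in blue. A FOXA2 peak sits at the centre in the chromosome 13, 4 and 10 panels, and the chromosome 4 and 10 panels have no SW480 region of any list shown.

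The chains with most members gave the same picture. On chromosome 17 from 57923037 to 57930947, 4 members lay within 7.91 kb in 2 acetylated regions, and all 4 were acetylated in SW480. On chromosome 1 from 235096438 to 235111214, 4 members lay within 14.8 kb and all 4 were acetylated in SW480. On chromosome 10 from 60712975 to 60727844, 4 members lay within 14.9 kb and none was marked in SW480. This last chain includes the third region named above that SW480 lacked, and the unmarked peak from 60833333 lies farther along the same chromosome.

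The members were found on all chromosomes analysed. The share of regions without H3K4me3 that held a member ran from 17.0% to 36.8% on chromosome 10. The share of members acetylated in SW480 ran from 32.2% (23.3 to 42.6) of 87 on chromosome 13 to 61.9% (49.6 to 72.9) of 63 on chromosome 19. On these chromosomes the share of all SW620 acetylated regions without H3K4me3 that were found in SW480 also differed, with 30.9% and 54.2%.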

How the data were processed

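Per the file headers, the authors used HOMER findPeaks on every library, with that line's input as control. Histone regions used the histone style, size 1000, 4-fold over input and local background, a false discovery rate of 0.001 and centring on the likely nucleosome-free region. FOXA2 peaks used the factor style with 2-fold limits and centring on the tag pile-up. Coordinates are on hg19 (submitters' processing notes). The aligner and HOMER version: not given in the sources used here. The deposited score was 1 in every row, so other deposited values (starts and ends in bp, tags in the headers) were used. Because centring moves stretches, 380 pairs of SW620 H3K27ac regions overlap, and 26 members lay in more than 1 region and were given to that with the nearest centre.

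Python 3.11.15 with pandas 2.3.3 and numpy 2.4.6 gave the overlaps. Bedtools 2.31.1 gave the same 2914 members, and on 2000 simulated regions 100% of memberships were recovered. Intervals came from scipy 1.17.1 and figures from matplotlib 3.10.9. State in SW480 was read at the peak, in the order H3K4me3, H3K27ac, H3K4me2. The even-spread share is the mean over peaks of 301 divided by the width of the peak's region plus peak width minus 1 bp. With 1 library per group there was no test. Regions were named by number of members, chain length, list order in each SW480 state and width, leaving out chromosomes 8 and 18. The members and lists were chosen with earlier results of these data known. The width bands, the distance of 150 bp and the comparison of region centres were chosen after the data were seen. The gene table at hand is on another build and was not used here.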

Additional observations from a re-analysis of the deposited data

How the results depend on the processing

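Settings were changed singly. The members numbered 1787 with the first-listed 50% of peaks and 1757 with the widest 50% of H3K27ac regions, and 2748 to 2916 under 6 others. The share acetylated in SW480 was 47.3% when SW480 regions within 1 kb counted, 40.9% without H3K4me3 of either line and 55.3% in the widest regions. The unmarked share was 44.9%, 51.3% and 38.8% in the same order. H3K4me2 in SW620 covered 84.9% when 50% of the peak had to be covered, likewise with the peak centre inside, and 90.5% in the widest regions. An SW480 FOXA2 peak was found at 1.903% with the first-listed peaks and at 0% when it had to cover 50% of the member, which SW480 peaks of 127 bp cannot do for peaks of 319 bp.

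The median relative distance to the region centre (0 centre, 1 edge) was 0.256. It was 0.232 with 50% of the peak or its centre inside, 0.310 with regions up to 1 kb apart joined and 0.221 with the first-listed peaks. The share within 150 bp of the centre, whose alternatives were chosen after seeing the data, was 34.1% with joined regions and 41.7% with the first-listed peaks. Enhancer-like regions held a member in 26.6% of cases with 50% of the peak or its centre inside, 29.7% with joined regions, 17.5% with the first-listed peaks and 42.3% in the widest regions. Members sharing a region made up 15.6% with joined regions, 8.34% with the first-listed peaks and 19.4% in the widest. Another member lay within 5 kb of 15.1% and within 25 kb of 34.1%, and within 10 kb of 14.2% of first-listed and 27.1% of members in the widest regions. The median distance to H3K4me3 was 35.8 kb without members within 1 kb of it and 27.4 kb in the widest regions. The band-weighted difference in regions also acetylated in SW480 lay between -7.39 and -5.33 percentage points under 5 alternatives added after seeing the data. All 5 width bands stayed below 0 in each.

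No paired analysis was possible because each line and antibody has 1 library. The SW480 FOXA2 library had 0.59% of its tags in peaks, against 2.25% in SW620 at similar depth, so a missing SW480 FOXA2 call cannot be told from a weak peak.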
